A study of Mus musculus with 6 samples.

Results

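CpGs in soft-masked sequence are those that the mm10 reference writes in lower case, which is how a genome assembly marks bases that a repeat-finding program recognised as interspersed or simple repeats. The members described here were the autosomal CpGs of lower-case sequence that lay in no CpG island and had 10 or more reads in all 6 libraries and under 1000 in each. They numbered 214173 of the 725061 autosomal CpGs with such reads and of the 3918746 autosomal CpGs listed in at least 1 library. Of 1193968 masked CpGs outside islands, 17.94% passed the limits on reads, against 17.34% of the upper-case CpGs outside islands, and 80 masked CpGs were left out for having 1000 or more reads. CpG islands were called by the UCSC rule, with masked bases not counted, a length of at least 200 bp, a G+C share of at least 50%, and an observed-to-expected CpG ratio above 0.6. By this rule 21036 masked CpGs lay in an island and were not members. The comparison set was the 342751 upper-case CpGs outside islands with the same reads. Mean levels were compared within the same kind of place where stated, and other counts and classes took all places together.

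DNA methylation was measured by RRBS, in which DNA cut by MspI at CCGG is bisulfite converted and sequenced, in CD8+ T cells enriched with a MagniSort kit from LNs of C57BL/6N mice at 13 weeks of age. The 3 genotypes were WT, hSTAT5B (human STAT5B transgene), and hSTAT5B N642H (the same transgene with the activating N642H mutation), with 2 libraries each. Both transgenes were driven by the hematopoietic Vav1 promoter, each line came from 1 chosen founder, and the hSTAT5B N642H mice were diseased when sampled, so genotype, disease, and the state of the cells cannot be told apart. The 2 libraries of a genotype came from separate samples, and with 2 against 2 an exact permutation test cannot give a p below 0.333.

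Interspersed repeats are copies of transposable elements scattered over the genome, and simple repeats are short units repeated in tandem. In most somatic cells the CpGs of interspersed repeats are kept methylated, through the maintenance methyltransferase Dnmt1 with its cofactor Uhrf1 and the helicase Hells, a state associated with silence of the elements' own promoters. A methylated cytosine is prone to turn into thymine over evolutionary time, so many old copies carry TG or CA where another copy has CG.

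The label held against the sequence. The 32-base window centred on a CpG occurred more than once in mm10 for 75.78% of the masked members, against 3.729% of the upper-case CpGs, and 49.42% of the members had a window with 100 or more copies, against 0 upper-case CpGs. A copy with TG or CA in place of the CpG existed for 152521 members and for 4602 upper-case CpGs. The members came down to 69960 distinct windows. Copies of 1 window are identical over its 32 bases, so reads may be assigned to the wrong copy, and the value of a CpG there may mix copies. How far this happened was not tested. Masked CpGs were also placed differently: 136568 lay between genes, 61194 in gene bodies, and 16411 within 2 kb of a transcription start, against 102407, 141242, and 99102 of the upper-case CpGs.

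Depth and cell markers differed between libraries before any comparison. The libraries held 43291086 to 67007186 reads, with a median of 26 to 46 reads per masked CpG, deepest in hSTAT5B N642H replicate 1. WT replicate 1 stood apart at Cd8a, the CD8 alpha chain, with a mean CpG level of 57.6% against 15.6 to 29.8% in the other 5 libraries. Of 8 T cell and CD8 marker genes, Cd8b1, Cd5, Lck, and Thy1 were lower in both hSTAT5B N642H libraries than in the other 4. The summed level of all 8, Cd8a included, was 482.9 and 438.3 in WT, 422.0 and 424.2 in hSTAT5B, and 384.0 and 381.2 in hSTAT5B N642H. Over 18708 protein-coding genes with at least 3 CpGs, both hSTAT5B N642H libraries were below the other 4 in 14.2% and above in 6.68%. Of 12 markers of B, CD4, and myeloid cells, Itgam and Pax5 were lower and Zbtb7b higher in both hSTAT5B N642H libraries. The sum over all 12 was 658.6 and 684.3, 681.3 and 683.2, and 690.8 and 684.9 in the same order of genotypes. The part of cell composition in the differences below was not tested. WT replicate 2 stood apart in 1 family of windows described below.

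The 5 windows that occurred most often among the members are shown first, since they hold more of the masked CpGs than any other sequence. Each is 32 bases of mm10 written 5′ to 3′, with the measured CpG in capitals in the middle.

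W1: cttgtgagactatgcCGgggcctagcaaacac
W2: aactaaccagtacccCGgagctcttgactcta
W3: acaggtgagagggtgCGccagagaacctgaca
W4: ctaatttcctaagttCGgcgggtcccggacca
W5: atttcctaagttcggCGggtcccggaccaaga

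W1 had 19674 copies in mm10 and 14682 of the members, and 1 copy lies at chr1:3099620-3099651 on the plus strand. W2 had 18453 copies and 3664 members, with a copy at chr1:3087866-3087897 on the minus strand. W3 had 5364 copies and 3131 members, with a copy at chr1:4559980-4560011 on the plus strand. W4 and W5 had 3244 and 3156 copies and 2865 and 2797 members, with copies at chr1:4559943-4559974 and chr1:4559940-4559971 on the minus strand. These last windows overlap, with their CpGs 3 bases apart. In W1 and W2 the CpG lies inside CCGG, the site that MspI cuts.

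All of these windows were highly methylated. W1 was methylated at 96.9 and 97.6% in WT, 97.5 and 97.4% in hSTAT5B, and 96.2 and 96.3% in hSTAT5B N642H. W2 was at 96.7 and 97.2% in WT, 96.9 and 96.9% in hSTAT5B, and 95.2 and 95.2% in hSTAT5B N642H. W3 was at 95.3 and 94.3% in WT, 96.0 and 95.6% in hSTAT5B, and 93.4 and 94.0% in hSTAT5B N642H. In these 3 windows both hSTAT5B N642H libraries lay below the other 4, by 1.01, 1.72, and 1.05 points from the WT mean.

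W4 and W5 differed from each other although their CpGs sit 3 bases apart. W4 was at 96.92 and 96.99% in WT, 97.3 and 97.3% in hSTAT5B, and 96.9 and 97.1% in hSTAT5B N642H. W5 was at 90.2 and 88.8% in WT, 91.4 and 90.9% in hSTAT5B, and 88.4 and 89.2% in hSTAT5B N642H. In both windows WT and hSTAT5B N642H overlapped, and both hSTAT5B libraries lay above the other 4. The level of the CpG was lower in W5 than in W4 in every library.

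Masked CpGs were more methylated than upper-case CpGs of the same place. In gene bodies the masked mean was 91.5 and 91.7% in WT, 91.9 and 91.8% in hSTAT5B, and 90.5 and 90.7% in hSTAT5B N642H. The upper-case mean there was 86.7 and 87.3%, 87.1 and 87.0%, and 86.1 and 86.4% in the same libraries. The masked CpGs were higher by 4.58 points (SD 0.261, n = 6 libraries), in 6 of 6 libraries (two-sided exact permutation test over 6 pairs, p = 0.0312, the smallest it can give, adjusted p = 0.0312 over 2 places).

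Between genes the gap was wider. The masked mean was 91.8 and 92.0% in WT, 92.2 and 92.1% in hSTAT5B, and 90.7 and 90.9% in hSTAT5B N642H, while the upper-case mean was 82.2 and 83.0%, 82.8 and 82.7%, and 81.7 and 82.0%. The masked CpGs were higher by 9.21 points (SD 0.269, n = 6), again in 6 of 6 libraries (exact permutation p = 0.0312, adjusted p = 0.0312). The gap was 2.68 points in gene bodies and 7.46 between genes when both sets were limited to windows with 1 copy in mm10, and 6.22 and 14.1 when the upper-case CpGs were weighted to the CpG density and flanking bases of the masked ones. With gene bodies taken to include CpGs near a start, the gap there was 12.4 points.

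**Figure D1:**
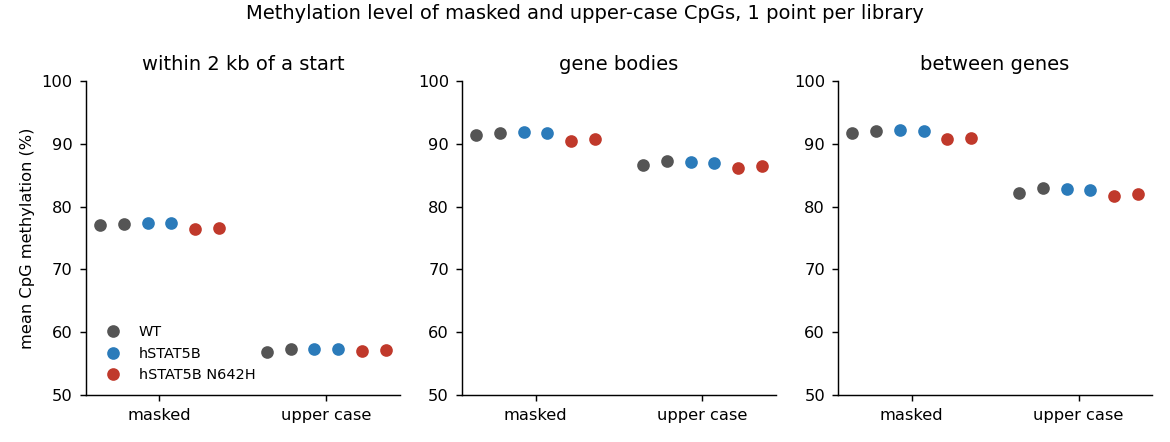
Mean CpG methylation (%, vertical axis from 50 to 100) of masked and upper-case CpGs within 2 kb of a transcription start, in gene bodies, and between genes, with 1 point per library coloured by genotype. Masked CpGs lie above upper-case CpGs in every panel, and the 2 hSTAT5B N642H points are the lowest of the masked points.

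Fewer masked CpGs were in an unmethylated or intermediate state. A level of 80% or more was found at 87.2 to 88.8% of the masked members per library, against 69.8 to 71.7% of the upper-case CpGs, and a level under 20% at 1.86 to 1.96%, against 13.7 to 14.3%. Replicate libraries of a genotype differed by 5.11, 4.92, and 4.96 points on average at a masked CpG in WT, hSTAT5B, and hSTAT5B N642H, and by 6.32, 6.31, and 6.13 points at an upper-case CpG.

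Over all members, hSTAT5B N642H CD8+ T cells were about 1 point less methylated than the other cells. The mean over the 214173 CpGs was 90.6 and 90.8% in WT, 91.0 and 90.9% in hSTAT5B, and 89.6 and 89.8% in hSTAT5B N642H. Both hSTAT5B N642H libraries lay below the other 4, and both hSTAT5B libraries lay above both WT libraries. The difference of hSTAT5B N642H from WT was −0.991 points (89.668 ± 0.127 against 90.658 ± 0.145, SD, n = 2), larger than the spread of either pair, although the exact permutation p was 0.333, the smallest that 2 against 2 allows (adjusted p = 0.392 over 20 tests of levels and gaps). From hSTAT5B it was −1.27 points (exact permutation p = 0.333, adjusted p = 0.392), and from the other 4 libraries together −1.13 points (exact permutation p = 0.0667, the smallest for 2 against 4, adjusted p = 0.333). hSTAT5B lay 0.282 points above WT (exact permutation p = 0.333, adjusted p = 0.392), by 0.179 when WT replicate 1 was left out, and by 0.0977 in windows with 1 copy, where the groups overlapped. The comparisons of hSTAT5B and of hSTAT5B N642H with WT share the WT libraries.

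The lower level was found in every place and on every autosome. hSTAT5B N642H minus WT was −0.969 points in gene bodies, −1.04 between genes, and −0.642 within 2 kb of a start. By chromosome, the masked mean was lower in both hSTAT5B N642H libraries than in the other 4 on 19 of 19 autosomes (100%), with differences from WT of −1.13 to −0.761 points. The upper-case mean was lower in both on 15 of 19 (78.9%), with differences from −0.795 to −0.173 points. The means by chromosome took CpGs of all places together. Chromosomes of 1 library are not replicates, and these counts describe the 6 libraries only.

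Whether the masked CpGs differed by more than the upper-case CpGs of the same place was not settled by these libraries. The upper-case difference from WT was −0.681 points in gene bodies and −0.776 between genes. The masked difference went further by −0.288 points in gene bodies (exact permutation p = 0.333, adjusted p = 0.392) and by −0.266 between genes (exact permutation p = 0.667, adjusted p = 0.702). Against the other 4 libraries the extra difference was −0.394 in gene bodies (exact permutation p = 0.0667, adjusted p = 0.333) and −0.336 between genes (exact permutation p = 0.267, adjusted p = 0.392). The gap of masked over upper-case CpGs in gene bodies was 4.81 and 4.41 points in WT, 4.88 and 4.76 in hSTAT5B, and 4.35 and 4.29 in hSTAT5B N642H, so WT replicate 2 lay close to the hSTAT5B N642H libraries. The extra difference from WT in gene bodies was −0.0877 without WT replicate 1 and −0.488 without WT replicate 2. Between genes, leaving out WT replicate 1 turned the extra difference from WT to 0.0403.

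The size of the difference varied with the sequence around the CpG. With 1 CpG in 100 bp, masked CpGs were lower in hSTAT5B N642H than in WT by 1.63 points (94.2 against 92.6%), and with 6 or more CpGs in 100 bp by 0.420 points (90.03 against 89.6%). The values in between were −1.44 for 2 CpGs, −1.36 for 3, and −0.793 for 4 or 5. Upper-case CpGs had the same order, from −1.07 at 1 CpG to 0.223 at 6 or more. The masked difference was below the upper-case difference in each class of density.

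Copy number had no such order. Members with a window that occurs once in mm10, which cannot exchange reads with an identical copy, were at 85.8 and 86.3% in WT, 86.2 and 86.1% in hSTAT5B, and 84.8 and 85.0% in hSTAT5B N642H, a difference from WT of −1.13 points. With 2 to 9 copies the difference was −1.22, with 10 to under 100 copies −0.647, and with 100 or more −0.988. The difference at windows that occur once was of about the size of that of the whole set (−0.991). Near-identical copies, such as those with TG or CA, were not counted as copies here. The part of reads from such copies was not tested.

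Length of the run and flanking bases shifted the level more than the difference. A run is an unbroken stretch of lower-case bases. Masked CpGs in runs under 100 bp averaged 79.8% in WT, and those in runs of 1000 bp or more 93.1%, with differences of −0.950 and −0.871 points. CpGs with A or T on both sides averaged 83.1% in WT and those with G or C on both sides 91.9%, with differences of −1.31 and −1.02. CpGs inside CCGG were at 93.0% in WT and the others at 87.8%, with differences of −1.17 and −0.778. The lowest class was the 1193 CpGs in short tandem repeats, at 56.9 and 57.3% in WT, 57.2 and 57.5% in hSTAT5B, and 56.6 and 56.8% in hSTAT5B N642H.

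The way islands were called mattered for the difference. Of the members, 41536 lay inside an island when all bases were counted. These were at 90.7 and 90.3% in WT, 91.4 and 91.2% in hSTAT5B, and 90.2 and 90.4% in hSTAT5B N642H, a difference from WT of −0.183 points. WT and hSTAT5B N642H overlapped there, and hSTAT5B lay above both, by 0.821 points over WT. The other 172637 members had a difference of −1.19 points.

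**Figure D2:**
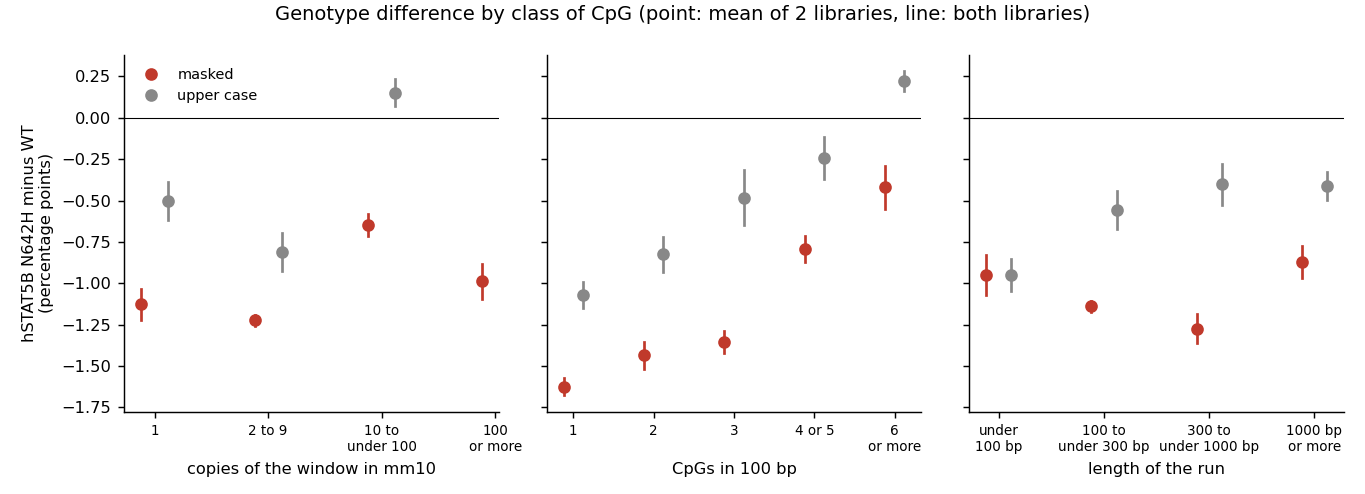
Difference in methylation between hSTAT5B N642H and the WT mean (percentage points) for masked (red) and upper-case (grey) CpGs by copies of the window in mm10, by CpGs in 100 bp, and by length of the unbroken run of 1 case. Points are means of the 2 hSTAT5B N642H libraries and lines join both libraries. Masked CpGs with 1 CpG in 100 bp lie lowest, at −1.63.

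A look at single sequences used the 172 windows that held at least 100 members each, 89080 CpGs or 41.59% of all. Their median level was 95.82%, and 130 of them were at 90% or more. Both hSTAT5B N642H libraries were below the other 4 in 100 windows (58.1%) and above them in 3 (1.74%). The median difference from WT was −0.709 points, the lowest −15.3, and the highest 4.02. Windows with the CpG in CCGG had a median level of 96.79%, and the others 91.9%. Among windows outside CCGG, the 39 with over 10% of TG or CA copies had a median of 86.66% and the 53 with fewer 95.07%.

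The window with the lowest level and the largest difference, and a window with a large difference and many TG or CA copies, are shown because they stand apart from the other windows. Both were chosen after their values were seen.

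W132: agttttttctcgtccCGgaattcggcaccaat
W27: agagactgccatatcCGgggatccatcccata

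W132 had 664 copies in mm10, 1 of them at chr1:6437117-6437148 on the plus strand, and 133 members. It was methylated at 40.7 and 35.6% in WT, 33.1 and 29.9% in hSTAT5B, and 19.4 and 26.2% in hSTAT5B N642H, so the genotypes did not overlap and hSTAT5B N642H lay 15.3 points below WT. The CpG lies in CCGG, where the ends of MspI fragments are filled in with unmethylated cytosine during library preparation, and the part of this step was not tested. At 47 members a neighbouring CpG 7 bases away was also measured. That neighbour was at 97.9 to 98.9% in all libraries, while the W132 CpG of the same copies was at 21.7 and 20.8% in WT, 16.7 and 16.9% in hSTAT5B, and 10.6 and 14.6% in hSTAT5B N642H. At 2 further members with a neighbour 5 bases away, the W132 CpG was at 81.8 to 87.3% and the neighbour at 91.9 to 97.7%.

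W27 had 1729 copies, 1 of them at chr1:7057390-7057421 on the plus strand, and 707 members. It was at 86.6 and 88.4% in WT, 86.9 and 86.1% in hSTAT5B, and 79.6 and 79.9% in hSTAT5B N642H, a difference from WT of −7.78 points. A further window that differs from W27 by 1 base held 267 members and differed by −7.97 points. TG or CA stood in place of CG in 76.5% of all copies of W27 and in 53.5% of those of its neighbour. Whether reads of such copies enter the counts was not tested.

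**Figure D3:**
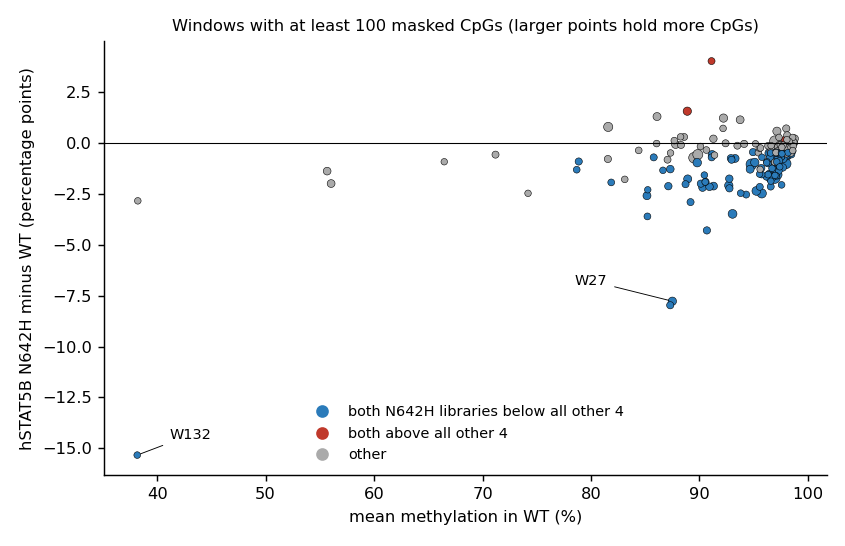
Difference between hSTAT5B N642H and WT (percentage points) against the mean WT methylation (%) for the 172 windows with at least 100 masked CpGs, each point 1 window, larger where it holds more CpGs. Most points lie just below 0 at a WT level over 90%, W27 lies at −7.78, and W132 lies alone at −15.3.

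Tests of single runs and CpGs made no call with limma. Over the 61632 runs of either case with at least 3 CpGs, of which 19045 were masked, limma called 0 masked runs in each of the 3 contrasts (background 0% of all runs), with smallest adjusted p-values of 0.587 for hSTAT5B N642H against WT, 0.747 for hSTAT5B against WT, and 0.61 for hSTAT5B N642H against hSTAT5B. At an unadjusted limma p under 0.05, 794 masked runs differed between hSTAT5B N642H and WT, 198 higher and 596 lower, and 963 between hSTAT5B N642H and hSTAT5B, 187 higher and 776 lower. These were 4.17% and 5.06% of the masked runs, against 7.46% and 7.58% of all runs. Between hSTAT5B and WT the count was 677 (3.55%, against 6.31% of all runs), 407 higher and 270 lower, and without WT replicate 1 it was 230 higher and 429 lower. Over single CpGs limma and a quasi-binomial model both called 0 of 556924 (0%), and at an unadjusted limma p under 0.05 the hSTAT5B N642H and WT libraries differed at 10070 masked CpGs (4.7%, against 6.61% of all CpGs), 4455 higher and 5615 lower. The direction of this split turned without WT replicate 2, with 5251 higher and 3901 lower, and without hSTAT5B N642H replicate 2, with 4334 higher and 3698 lower. It stayed with an offset of 0.5 in the log ratio, with 4100 higher and 7253 lower. With the quasi-binomial model it was 1353 higher and 2833 lower.

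A quasi-binomial model of the reads, run as an alternative, called 38 masked runs between hSTAT5B N642H and WT. Of these, 33 rose (0.173% of the masked runs) and 5 fell (0.0263%), against 218 of all runs (0.354%), 144 higher (0.234%) and 74 lower (0.12%). Between hSTAT5B N642H and hSTAT5B it called 19 masked runs, 7 higher and 12 lower, against 0.112% of all runs (0.0471% higher and 0.0649% lower), and between hSTAT5B and WT 0. The calls of masked runs were thus no more frequent than those of all runs. Each of the 33 that rose held at least 1 of the 21 windows described below, which were drawn from runs that include some of the 33.

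By a plain count, masked runs were more often lower in hSTAT5B N642H. Among 9192 masked runs with at least 5 CpGs, both hSTAT5B N642H libraries were below the other 4 in 1855 (20.2%), against 14.9% of the 21195 runs of either case and 10.9% of the upper-case runs. Both were above in 2.85%, against 5.16% of all such runs. The median difference from WT was −0.700 points for masked and −0.252 for upper-case runs. The runs were not matched for place or level. Near a start lay 28.91% of the upper-case CpGs and 7.662% of the masked ones. Every library was under 20% in 19.8% of upper-case and 0.25% of masked runs, which leaves little room to be lower. Large differences were rarer in masked runs: 23 (0.25%) were lower by 10 points or more and 57 (0.62%) higher by 10 or more, against 2.1% and 2.83% of 12003 upper-case runs.

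**Figure D4:**
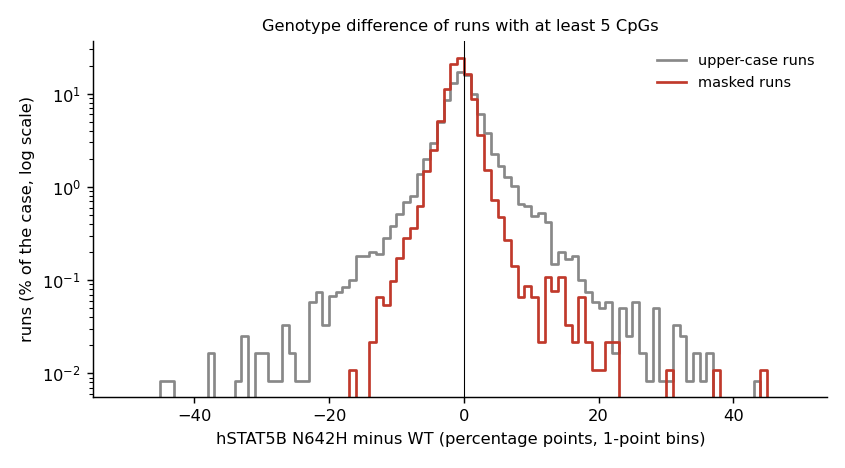
Share of runs with at least 5 CpGs (% of each case, log scale) by the difference between hSTAT5B N642H and WT in 1-point bins, for masked (red) and upper-case (grey) runs. The masked curve is narrower, with its centre just under 0 (median −0.700) and a shoulder on the right between 10 and 23 points.

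The 5 masked runs with the largest lower level in both hSTAT5B N642H libraries are described without a test, since that value chose them. They lay in Mcu, the pore subunit of the mitochondrial calcium uniporter, in the phosphatase gene Pptc7, and outside genes near Nkain3, H2-M10.3, and Ulbp1. The run in the body of Mcu (chr10:59460790-59460995, in no exon) was at 81.2 and 66.8% in WT, 77.6 and 68.2% in hSTAT5B, and 55.2 and 66.3% in hSTAT5B N642H over 5 CpGs, so that the replicates of a genotype lay as far apart as the genotypes. The run 30567 bp upstream of H2-M10.3, a nonclassical MHC class I gene (chr17:36398984-36403109), was at 80.1 and 84.2% in WT, 81.8 and 81.2% in hSTAT5B, and 69.3 and 69.7% in hSTAT5B N642H, with close replicates. All 5 members in this run lay within 2 kb of an annotated transcript start. The other differences from WT were −13.0 points 48002 bp upstream of Nkain3 (chr4:20826868-20827048), −12.6 in Pptc7 (chr5:122309906-122310408, in no exon), and −12.0 at 37976 bp downstream of Ulbp1 (chr10:7395919-7402386). There the hSTAT5B N642H replicates lay apart, at 66.5 and 78.4% near Nkain3, 70.6 and 82.0% in Pptc7, and 68.0 and 53.9% near Ulbp1. WT was at 91.1 and 79.9%, 92.5 and 85.1%, and 73.0 and 72.9% in the same runs. The 5 adjusted limma p-values were 0.633 to 0.754.

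The run near H2-M10.3 and the run in Pptc7 hold the same 23 bases on opposite strands. The stretch is printed with its CpGs in capitals because they lie 7 bases apart and had different levels.

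shared stretch: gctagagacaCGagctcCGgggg

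This stretch, looked at after the values of its runs were seen, was found around 163 members, 161 of them in other runs. Its first CpG was at 80.5 and 81.6% in WT, 81.09 and 80.03% in hSTAT5B, and 78.0 and 77.2% in hSTAT5B N642H over those 161, lower than WT by 3.45 points. Both hSTAT5B N642H libraries lay below the other 4 at 16.8% of these CpGs, against 10.1% of all masked CpGs. Among masked CpGs with a mean of 60 to under 95% the share was 11.7%. The second CpG, measured at 152 of them and inside CCGG, was at 96.8 and 98.3% in WT, 97.8 and 96.5% in hSTAT5B, and 96.5 and 97.2% in hSTAT5B N642H. The groups overlapped at the second CpG, and its difference from WT was −0.711 points.

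The 5 named runs with the largest higher level in both hSTAT5B N642H libraries lay in Camk2b, in Ppat, and near Scpep1 and Catsperg2. A run in the body of Camk2b, a calcium/calmodulin-dependent kinase subunit (chr11:6011262-6011496, in no exon), was at 46.0 and 52.6% in WT, 62.2 and 66.0% in hSTAT5B, and 79.4 and 79.6% in hSTAT5B N642H over 6 CpGs. A further run in the same gene (chr11:6006154-6006689) was at 49.2 and 38.3% in WT, 48.3 and 48.3% in hSTAT5B, and 65.1 and 66.7% in hSTAT5B N642H over 18 CpGs. The run in Ppat, which encodes the first enzyme of purine synthesis (chr5:76930514-76931601, also inside 2310040G07Rik), was at 83.5 and 62.2% in WT, 79.2 and 86.2% in hSTAT5B, and 93.9 and 94.8% in hSTAT5B N642H.

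The remaining named runs were intergenic. At 27734 bp downstream of Scpep1 (chr11:88895883-88896286) the levels were 84.4 and 57.0% in WT, 84.7 and 87.4% in hSTAT5B, and 95.2 and 91.2% in hSTAT5B N642H. At 80928 bp downstream of Catsperg2 (chr7:29615205-29616291) they were 85.0 and 60.01%, 81.8 and 79.4%, and 93.7 and 93.0%. In these 2 runs and in Ppat, WT replicate 2 lay over 20 points below WT replicate 1. Without WT replicate 2 the differences of 22.5, 20.9, and 21.5 points became 8.78, 8.39, and 10.9. The 5 adjusted limma p-values were 0.587 to 0.624, and those of the quasi-binomial model 0.0107 to 0.0521. Every member in these runs lay inside an island when all bases were counted, except in the Camk2b run of 6 CpGs, where 0 did. The largest difference of any masked run, 44.5 points, belonged to a run that the rule did not name.

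Several of these runs shared windows. The run in Ppat and the run near Catsperg2 had 14 of 15 windows in common, and all 6 windows of the shorter Camk2b run occurred in the longer one, while it shared 0 windows with the other 3 runs. In all, 21 windows occurred in at least 2 of the 5 runs. A window of few copies and windows of many copies are shown, with the measured CpG in capitals, since reads can be assigned best for the first.

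F2: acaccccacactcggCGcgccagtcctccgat
F11: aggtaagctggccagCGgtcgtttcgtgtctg
F16: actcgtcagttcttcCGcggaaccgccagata

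F2 had 4 copies in mm10, F11 63, and F16 52. F2 was at 52.1 and 50.7% in WT, 63.7 and 61.5% in hSTAT5B, and 81.2 and 75.6% in hSTAT5B N642H over 4 CpGs. F11 was at 83.7 and 69.6% in WT, 80.4 and 77.5% in hSTAT5B, and 91.6 and 90.6% in hSTAT5B N642H over 59 CpGs. F16 was at 90.3 and 77.2% in WT, 85.5 and 87.8% in hSTAT5B, and 96.4 and 96.1% in hSTAT5B N642H over 46 CpGs. In F2 the WT libraries were alike and hSTAT5B lay between WT and hSTAT5B N642H, whereas in F11 and F16 the WT libraries lay on both sides of hSTAT5B.

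The 21 windows, a set chosen after their values were seen, covered 694 members on 18 chromosomes, with 4 to 76 copies each. All 21 were higher in both hSTAT5B N642H libraries than in the other 4. Outside the 5 named runs, which leaves 636 CpGs, the mean was 86.1 and 72.5% in WT, 82.7 and 81.9% in hSTAT5B, and 93.4 and 92.3% in hSTAT5B N642H. The difference from WT was 13.5 points there and 14.3 over all 694, with 7.26 points when WT replicate 2 was left out and 21.3 when WT replicate 1 was left out. hSTAT5B lay 3.58 points above WT, between the 2 WT libraries. Over all masked CpGs the same libraries had the opposite order, with hSTAT5B N642H lowest.

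Among 49 further runs with at least 5 CpGs in these windows, both hSTAT5B N642H libraries were above the other 4 in 46 and below in 0, against the 5.16% and 14.9% of all runs given above. Their median difference from WT was 13.3 points, with a range of 4.95 to 32.5, and WT replicate 2 was the lowest library in 47 of them. All 33 masked runs that the quasi-binomial model called higher held at least 1 of the 21 windows, against 81 of the 19045 masked runs tested. Of the 57 masked runs with at least 5 CpGs that were higher by 10 points or more, 51 held 1, against 81 of 9192 such runs. The named runs that gave the windows are included in these counts, so the overlap is partly fixed by that choice. Reads may be shared between the copies, so these runs cannot be taken as independent of each other.

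**Figure D5:**
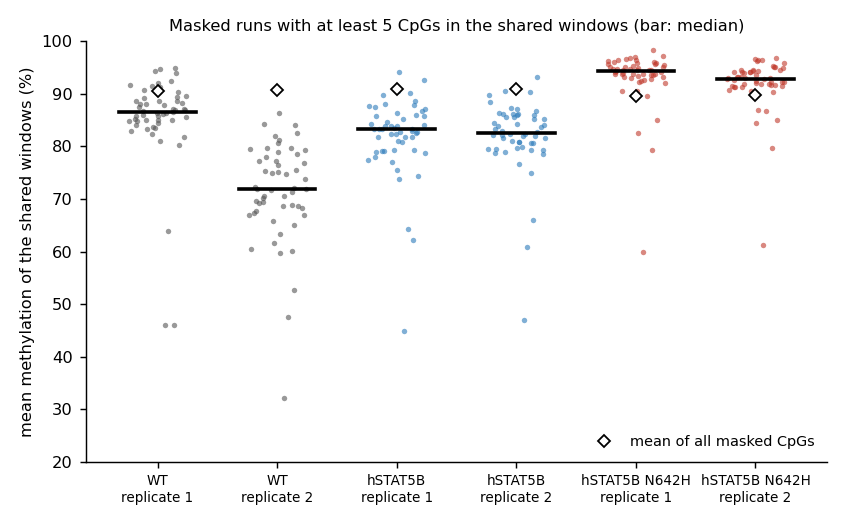
Mean methylation (%, axis from 20 to 100) of the shared windows in the 54 masked runs with at least 5 such CpGs, 1 point per run in each of the 6 libraries, with the median as a bar and the mean of all masked CpGs as an open diamond. The hSTAT5B N642H medians lie highest, above the diamond, although a few points of these libraries lie below it. WT replicate 2 lies lowest, with the points of most runs under 80%.

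CpGs next to the shared windows differed in the same direction. In the same masked runs, 15 CpGs with a window of 1 copy, from 6 runs, were at 57.2 and 42.1% in WT, 58.5 and 50.9% in hSTAT5B, and 86.0 and 82.4% in hSTAT5B N642H. Upper-case CpGs of 1 copy within 1 kb of these runs were at 72.4 and 70.4% in WT, 71.5 and 69.3% in hSTAT5B, and 78.4 and 75.3% in hSTAT5B N642H (41 CpGs), so the groups did not overlap and the difference from WT was 5.46 points. At 1 to 5 kb the difference was −0.902 points over 126 CpGs of 1 copy. The named runs, which their values had chosen, were not left out of these sets, so the levels are a description only. WT replicate 2 was not apart from WT replicate 1 in the upper-case CpGs of 1 copy within 1 kb. The part of reads shared between copies was not tested.

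Of the 5 masked runs that the quasi-binomial model called lower, 4 are named here, chosen after their values were seen. In Gm12339, a noncoding transcript (chr11:75806413-75806599), 3 CpGs of 1 copy were at 74.5 and 72.4% in WT, 60.4 and 76.04% in hSTAT5B, and 27.8 and 23.5% in hSTAT5B N642H, and each library had 51 to 96 reads there (quasi-binomial adjusted p = 0.0238, limma adjusted p = 0.587). At 33623 bp upstream of Pi4k2b, a phosphatidylinositol 4-kinase gene (chr5:52707723-52707951), the levels were 96.4 and 97.1% in WT, 98.6 and 99.3% in hSTAT5B, and 76.8 and 77.5% in hSTAT5B N642H. In both runs hSTAT5B N642H stood clear of the other 4 libraries and its replicates were within 5 points of each other.

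At 640979 bp upstream of Slc8a1, the sodium/calcium exchanger gene (chr17:82379356-82379757), the levels were 64.3 and 65.4% in WT, 61.0 and 66.9% in hSTAT5B, and 42.9 and 42.8% in hSTAT5B N642H. In Gtf2i, which encodes a general transcription factor, the run overlaps coding exon sequence (chr5:134266592-134266615) and was at 34.8 and 21.3% in WT, 8.30 and 18.7% in hSTAT5B, and 6.40 and 4.16% in hSTAT5B N642H. All 4 members in the Gtf2i run lay within 2 kb of a transcription start. In the run near Slc8a1 hSTAT5B N642H also stood clear of the other 4, whereas in Gtf2i hSTAT5B lay below both WT libraries.

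Unmethylated masked runs were rare and short. Every library was under 20% in 23 of 9192 masked runs (0.25%), against 19.8% of upper-case runs, and at 80% or more in 91% of masked and 57.1% of upper-case runs. Of the 23, 21 had a CpG within 2 kb of a transcription start and 21 were shorter than 100 bp. The 5 that held most CpGs lay at Shh, a secreted morphogen, Crabp1, which binds retinoic acid, Pan3, a subunit of a deadenylase, Coro2b, an actin-binding coronin, and 1201 bp upstream of Cpeb4, an RNA-binding protein. The runs at Shh (chr5:28464386-28464443) and near Cpeb4 (chr11:31870976-31871010) are printed, since they are CG-rich tandem repeats and not copies of a longer element. CpGs are in capitals.

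Shh run: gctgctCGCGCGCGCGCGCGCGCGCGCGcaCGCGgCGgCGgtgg
Cpeb4 run: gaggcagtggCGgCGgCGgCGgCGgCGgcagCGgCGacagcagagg

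The Shh run held 11 members and lay at 0 to 2.10% in the 6 libraries, and the Cpeb4 run at 0 to 0.75%. The Crabp1 run lay at 4.70 to 11.3%, the Pan3 run at 1.88 to 14.4%, and the Coro2b run at 0 to 11.4%, with hSTAT5B replicate 2 highest. All 5 had windows of 1 copy, and every member in them lay inside an island when all bases were counted. WT was at 5.11 and 4.70% in the Crabp1 run, below the other 4 libraries.

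Between these extremes, 394 masked runs had a mean of 20 to 80%. The 5 whose libraries were farthest apart, a description of the spread, included the shorter Camk2b run. The run in Cnbd2 (chr2:156362997-156363120) was at 86.6 and 58.8% in WT, 68.1 and 54.2% in hSTAT5B, and 93.3 and 88.3% in hSTAT5B N642H, and a run 18323 bp downstream of Ahdc1 (chr4:133096433-133096568) at 53.6 and 32.4%, 62.7 and 52.5%, and 62.5 and 66.1%. In both, WT replicate 2 lay over 20 points below WT replicate 1. In Ryk, a Wnt receptor gene (chr9:102837787-102838564), WT replicate 1 alone was high, at 91.5%, against 60.1 to 69.9% in the rest. In the noncoding gene 1500012K07Rik (chr7:75309596-75309652) the hSTAT5B N642H libraries themselves lay at 54.0 and 84.4%, so 1 library made the spread.

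Masked CpGs in or within 10 kb of genes of interest were few. Of 34 T cell genes, among them cytokine receptors, effector genes, and STAT5 targets, 10 had at least 3 members, and their median difference between hSTAT5B N642H and WT was −0.0396 points, against −0.894 over 8271 protein-coding genes. Foxo1, a transcription factor of naive T cells, was lower in both hSTAT5B N642H libraries than in the other 4, and Runx3, a transcription factor of CD8+ T cells, higher. Over all genes, 1460 (17.7%) were lower in both and 268 (3.24%) higher. Foxo1 was at 92.4 and 94.8% in WT, 92.0 and 97.2% in hSTAT5B, and 86.4 and 90.3% in hSTAT5B N642H over 4 CpGs, and Runx3 at 92.1 and 91.0%, 92.0 and 91.7%, and 92.6 and 93.0% over 16 CpGs. Of the 10 genes, 5 lay below the WT mean in hSTAT5B N642H.

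Of 16 genes linked to the methylation or silence of repeats, 8 had at least 3 masked CpGs, with a median difference of −0.430 points. Tet1 and Tet2, which encode methylcytosine dioxygenases, were among the 8. Hells was at 96.5 and 96.2% in WT, 88.5 and 90.2% in hSTAT5B, and 84.4 and 88.2% in hSTAT5B N642H over 3 CpGs. It was the 1 gene of the 8 (12.5%) that was lower in both hSTAT5B N642H libraries than in the other 4. The share over all 8271 protein-coding genes was 17.65%, so this count is no more than that of genes at large. Both hSTAT5B libraries were also below WT at Hells. Dnmt1 was at 81.4 and 82.0% in WT and 81.5 and 78.4% in hSTAT5B N642H, and Uhrf1 at 31.9 and 32.2% in WT and 33.6 and 33.7% in hSTAT5B N642H. At both, the hSTAT5B libraries lay on either side of the hSTAT5B N642H ones.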

How the data were processed

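RRBS was performed on 6 libraries, 2 per genotype. Per the labels and the study's methods, the authors trimmed reads with Trimmomatic, aligned them to GRCm38 (mm10) with BSMAP in its RRBS mode, and deposited, for each CpG of each library, the count of methylated reads over all reads and a score, which is that share scaled by 1000 and rounded. The versions were not given in the sources used here. The counts were used, and the score only to check them. RRBS reads carry no molecular identifiers, so spread and counts cover reads and not molecules.

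The level of a CpG was its methylated share in %, and means over CpGs were unweighted. Case was read from the soft-masked mm10 sequence. The program behind the masking is not stated in it and no repeat families were assigned. CpGs on a border of masked sequence (5493 with enough reads) were left out. Genes came from the GENCODE annotation of GRCm38. Place was near a start (within 2 kb of any transcript's start), gene body, or between genes. Levels were compared by two-sided exact permutation tests over libraries, with Benjamini-Hochberg adjustment over 20 genotype tests and over 2 tests of place. Runs with at least 3 CpGs and single CpGs were fitted with limma 3.58.1 (R 4.3.3) on log2((methylated + 1)/(unmethylated + 1)) over all 6 libraries and over masked and upper-case features together, at an adjusted p of 0.05. The runs were also fitted with a quasi-binomial model whose dispersions were moderated by limma. The fits were tested on simulated data. Replicate numbers did not pair libraries: correlations of same-numbered deviations were −0.00537 to 0.00738.

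The members and lists were chosen with earlier results of these data known. Named were the 5 most frequent windows, 5 runs each with at least 5 CpGs that were highest or lowest in both hSTAT5B N642H libraries, 5 with every library under 20% and most CpGs, and 5 of intermediate mean with the widest spread. Runs on 1 autosome and the sex chromosomes were not named. Alternatives changed limits on reads, weighting, copy number, place, islands, offset, model, and libraries. Islands on all bases, TG or CA copies, CCGG, counting each window once, and the shared windows were added after seeing the data.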

Additional observations from a re-analysis of the deposited data

How the results depend on the processing

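The genotype differences in the mean level of masked CpGs kept their direction under all 180 alternative values. These covered hSTAT5B N642H against WT, against hSTAT5B, and against the other 4 libraries, and hSTAT5B against WT. For hSTAT5B N642H minus WT over all members the range was −1.19 to −0.795 points. None of these tests could pass the threshold at this size. The gap of masked over upper-case CpGs kept its sign under 38 of 38 alternatives. Leaving out 1 library gave 4.52 to 4.64 points in gene bodies and 9.14 to 9.27 between genes, with an exact permutation p of 0.0625, the smallest that 5 pairs allow. The extra genotype difference of masked over upper-case CpGs kept its direction in 144 alternatives and changed sign in 8. With pooled reads, the values between genes became −0.142 for hSTAT5B minus WT, 0.127 for hSTAT5B N642H minus hSTAT5B, and 0.0564 for hSTAT5B N642H minus the other 4. With windows of 1 copy, hSTAT5B minus WT became −0.0175 in gene bodies and −0.0377 between genes, and with CpGs in CCGG −0.0334 between genes. Without WT replicate 1, hSTAT5B N642H minus WT between genes became 0.0403 (range when leaving out 1 library −0.573 to 0.0403), and without WT replicate 2, hSTAT5B minus WT became −0.167 (range −0.167 to 0.446). The causes were not tested. Calls of masked runs stayed at 0 in 34 alternatives, and the quasi-binomial model called 38 for hSTAT5B N642H against WT and 19 against hSTAT5B. With the replicate number as a block, limma called 0 masked runs in each contrast, with a smallest adjusted p of 0.678 for hSTAT5B N642H against WT. The median of 26 to 46 reads per masked CpG limits single CpGs more than means over many.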
